A study of Mus musculus with 8 samples.

Results

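Marker genes of B cells and T cells were followed in the ovaries of 8 obese mice. The set was taken by gene name: Cd79a, Cd79b and Ms4a1 for B cells, Cd3e, Cd3g, Cd4, Cd8a and Lck for T cells, and Ptprc for leukocytes in general. Of these 9 genes, 8 had a probe under their own name, with 1 probe for each gene, among the 36227 probes of the array. No probe carried the name Lck in the annotation used, so Lck is named only. No probe paired a member with another gene. Of the 8 member probes, 7 were bright enough to be tested.

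The animals were female C57BL/6J Ay/a mice (Lethal Yellow, LY), heterozygous for an agouti allele under which mice become obese and insulin resistant with age. Pioglitazone, a thiazolidinedione that binds PPARγ, was given by gavage in DMSO to 4 mice, and the 4 vehicle mice received DMSO alone. Daily treatment began at 120 days of age and lasted 60 days, so ovaries were taken at 180 days. The labels give a dose of 0.1 mg per day, while the text of the study gives a lower one. Each mouse contributed ovarian RNA to 1 single-colour CodeLink array. Ovaries were trimmed of fat. The stage of the oestrous cycle was not given in the sources used here. Lean mice were not analysed here.

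B cells recognise antigen through membrane immunoglobulin, which signals through the paired chains encoded by Cd79a and Cd79b. Ms4a1 encodes CD20, a surface protein of mature B cells. T cells recognise antigen through the T cell receptor, whose signalling chains include those of Cd3e and Cd3g. Cd4 and Cd8a encode co-receptors that bind MHC class II and class I, and Lck encodes the kinase bound to those co-receptors. Ptprc encodes CD45, a phosphatase on the surface of all nucleated blood cells. In the ovary, leukocytes lie in the stroma and around vessels and corpora lutea, with macrophages as an abundant class. The ovary is a mixed tissue, so fewer cells of a type and less RNA per cell cannot be told apart.

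The promoters of the paired Cd3 genes and of Cd79a are shown because each holds a CAGGTG E-box, a motif bound by E proteins, which act in early B and T cell development. RefSeq windows (GRCm38.p6, 300 bases around the transcription start) were found for 6 of the 9 genes. Capitals mark CAGGTG on either strand, so that CACCTG is the same motif read from the other strand. Cd79a lies at chr7:24897247-24897546 on the plus strand, Cd3e at chr9:45009562-45009861 and Cd3g at chr9:44980382-44980681, both on the minus strand.
Cd79a: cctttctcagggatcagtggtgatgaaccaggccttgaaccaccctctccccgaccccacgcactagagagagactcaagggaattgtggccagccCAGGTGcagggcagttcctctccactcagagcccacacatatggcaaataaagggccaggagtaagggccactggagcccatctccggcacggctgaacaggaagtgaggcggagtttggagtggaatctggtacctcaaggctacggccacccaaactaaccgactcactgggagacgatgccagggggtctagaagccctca
Cd3e: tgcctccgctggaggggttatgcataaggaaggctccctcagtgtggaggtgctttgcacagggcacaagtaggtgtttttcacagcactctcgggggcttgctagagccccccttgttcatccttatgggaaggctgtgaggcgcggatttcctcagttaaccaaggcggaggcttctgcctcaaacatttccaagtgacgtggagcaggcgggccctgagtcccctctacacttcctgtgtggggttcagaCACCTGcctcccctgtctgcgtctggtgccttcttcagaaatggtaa
Cd3g: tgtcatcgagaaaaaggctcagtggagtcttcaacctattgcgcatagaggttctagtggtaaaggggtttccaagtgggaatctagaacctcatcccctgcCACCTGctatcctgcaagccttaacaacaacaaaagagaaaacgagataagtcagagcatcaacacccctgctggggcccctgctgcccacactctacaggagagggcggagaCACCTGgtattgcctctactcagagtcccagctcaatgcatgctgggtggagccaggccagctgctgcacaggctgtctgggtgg

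CAGGTG was present in the windows of 4 of the 6 genes (Cd79a, Cd3e, Cd3g and Lck), against 20.2% of all 32851 windows of this length. The Ikaros core TGGGAA was present in 4 of the 8 and in 25.6% of all windows. The PU.1 core GAGGAA was present in 5 of the 8 and in 28.3% of all windows. The ETS core GGAAG was present in 7 of the 8 and in 71.4% of all windows. The octamer ATGCAAAT (1.74% of all windows), the EBF core CCCNNGGG (13.7%) and the PPAR response element (0.04%) were in no window of the 6 genes. Every motif was searched as an exact match, with N for any base, so near matches were not counted. Absence of the exact letters thus does not show that a factor has no site. For a motif as rare as the PPAR response element, absence from so few windows says little. Motifs were searched on both strands, were picked with the expression values known, and are described only. Cd3e and Cd3g lie on either side of Cd3d on chromosome 9, and Cd8a lies beside Cd8b1 on chromosome 6.

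Levels are given in relative intensity units, in which 1 is the median of all probes on an array and 0.2 is the limit of sensitivity named in the methods. A probe was tested when its mean reached 0.2 in at least 1 group. Levels of different probes are not compared, since probes differ in how strongly they bind. The 8 arrays each lacked between 47 and 211 spots, 82.5% to 83.9% of values were at or above 0.2, and arrays correlated between 0.949 and 0.987. The luteal list of 10 genes summed to at least 376.8 units in every ovary.

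By the unadjusted test Cd79a was lower after pioglitazone (ratio 0.743). Cd79b, its partner in the same receptor, and Ms4a1 were higher (ratios 1.29 and 1.25). None of the 7 probes passed adjustment over all 30634 probes tested (limma, Benjamini-Hochberg), nor did any other probe on the array (0% called, smallest adjusted p = 0.599). At an unadjusted p under 0.05, 3 of the 7 were called, 1 lower and 2 higher, where 5.5% of all probes tested were called. Blocking on the replicate number, 2 of the 7 were called (Cd79a and Cd79b), where 8.6% of all probes were. Groups did not overlap for 1 of the 7, where 4.59% of all probes had groups that did not overlap. The T cell probes and Ptprc did not reach the unadjusted threshold.

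**Figure D1:**
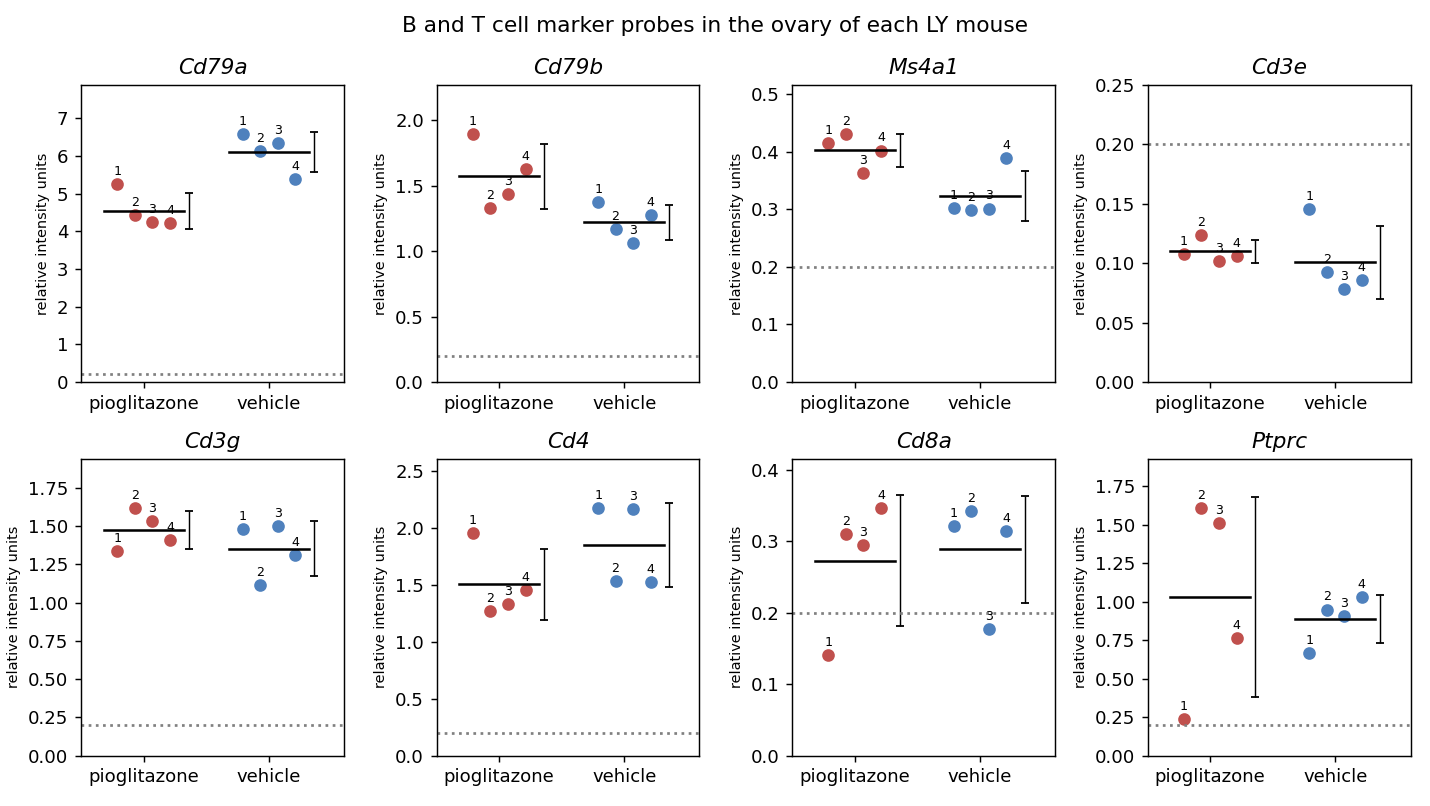
Relative intensity (linear axis from 0) of the 8 marker probes in each mouse, with pioglitazone left and vehicle right; numbers are mouse numbers, horizontal lines group means, vertical bars 1 SD (n = 4 each) and dotted lines the sensitivity limit of 0.2. The groups separate for Cd79a, where the highest pioglitazone mouse was at 5.25 and the lowest vehicle mouse at 5.37, and Cd3e lies under the limit in all mice.

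Cd79a encodes Igα of the B cell receptor. Its level was 5.25, 4.42, 4.25 and 4.22 units in pioglitazone mice 1 to 4, against 6.57, 6.13, 6.34 and 5.37 units in vehicle mice 1 to 4. All pioglitazone mice lay below all vehicle mice. The mean was 4.54 ± 0.48 units in pioglitazone mice and 6.10 ± 0.52 units in vehicle mice (SD, n = 4 each), a ratio of 0.743. The log2 fold change was -0.43 (SE 0.14, 95% confidence interval -0.74 to -0.12), with an unadjusted p = 0.0123 and an adjusted p = 0.837 in limma. The exact permutation test gave p = 0.0286, two-sided, which is the smallest that 4 against 4 mice can give. By p, Cd79a ranked 251 of the 30634 probes. The unadjusted call held in all 23 alternatives, and on log2 values its p lay between 0.00443 and 0.0376.

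Cd79b encodes Igβ, the other chain. Its level was 1.89, 1.33, 1.44 and 1.63 units in pioglitazone mice, against 1.37, 1.17, 1.06 and 1.27 units in vehicle mice. The groups overlapped, since pioglitazone mouse 2 lay below vehicle mouse 1. The log2 fold change was 0.36 (SE 0.16, unadjusted p = 0.0488, adjusted p = 0.837 in limma), and the exact permutation p was 0.0571. The unadjusted call was lost without pioglitazone mouse 1 (0.27), 3 (0.40) or 4 (0.34), and without vehicle mouse 2 (0.34), 3 (0.30) or 4 (0.38). Whether Cd79a and Cd79b differed from each other in their change was not tested.

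Ms4a1 was dim, with values between 0.299 and 0.430 units. It read 0.416, 0.430, 0.363 and 0.402 units in pioglitazone mice, against 0.303, 0.299, 0.301 and 0.389 units in vehicle mice. Vehicle mice 1 to 3 lay together below all pioglitazone mice, and vehicle mouse 4 lay among the pioglitazone mice. The log2 fold change was 0.32 (SE 0.14, unadjusted p = 0.0492, adjusted p = 0.837 in limma), and the exact permutation p was 0.0571. Blocking on the replicate number gave an unadjusted p = 0.061 in limma. When each mouse was left out in turn the call held only without vehicle mouse 4 (0.42), and the other values lay between 0.29 and 0.37.

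The groups overlapped for each of the T cell probes. Cd3e, at 0.108, 0.123, 0.102 and 0.106 units in pioglitazone mice and 0.146, 0.092, 0.079 and 0.086 units in vehicle mice, was under the limit in all 8, so no fold is given. Cd3g, a chain of the same complex, read 1.34, 1.62, 1.53 and 1.41 units in pioglitazone mice and 1.48, 1.12, 1.499 and 1.31 units in vehicle mice. The groups overlapped, with a log2 fold change of 0.13 (95% confidence interval -0.20 to 0.46, adjusted p = 0.898 in limma), or 0.042 without vehicle mouse 2.

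Cd4, which macrophages of rats and humans also carry, read 1.96, 1.27, 1.33 and 1.46 units in pioglitazone mice and 2.18, 1.54, 2.17 and 1.53 units in vehicle mice. Vehicle mice 1 and 3 were the highest, followed by pioglitazone mouse 1. The log2 fold change was -0.30 (95% confidence interval -0.74 to 0.15, adjusted p = 0.860 in limma). Without pioglitazone mouse 1 it was -0.43 with an unadjusted p = 0.0495 in limma.

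Cd8a read 0.140, 0.310, 0.295 and 0.346 units in pioglitazone mice and 0.321, 0.342, 0.178 and 0.313 units in vehicle mice. Pioglitazone mouse 1 and vehicle mouse 3 were under the limit. The log2 fold change was -0.12 (95% confidence interval -0.83 to 0.60, adjusted p = 0.959 in limma), and it turned to 0.18 without pioglitazone mouse 1.

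**Figure D2:**
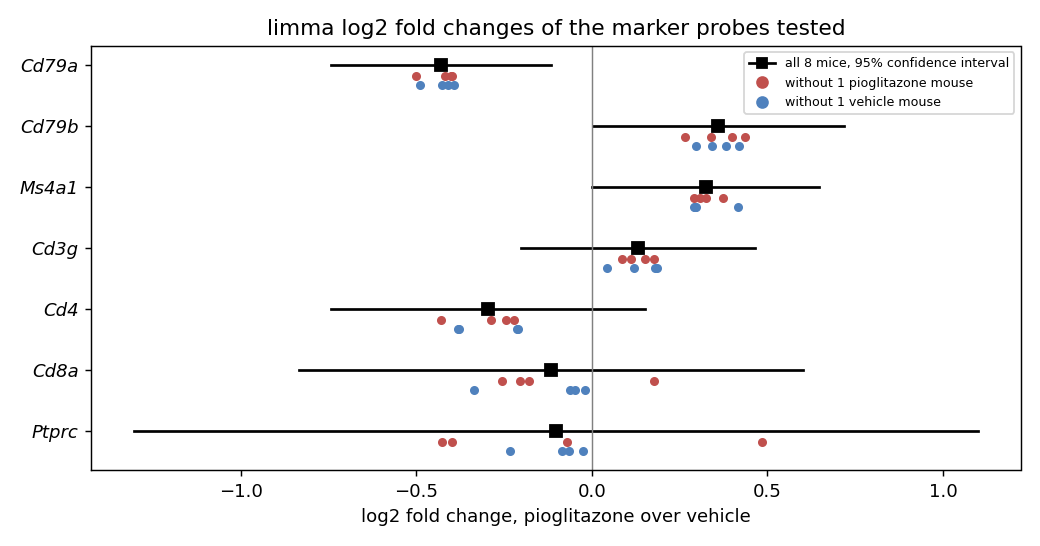
Log2 fold change of pioglitazone over vehicle (x axis) for the 7 probes tested; squares and lines are the value from all 8 mice with its 95% confidence interval, and small dots the values with 1 mouse left out, red for a pioglitazone mouse and blue for a vehicle mouse. The interval of Cd79a runs from -0.74 to -0.12, and the dots of Cd8a and Ptprc fall on both sides of 0.

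Ptprc varied most among the 7 probes. It read 0.241, 1.61, 1.51 and 0.763 units in pioglitazone mice, against 0.669, 0.949, 0.908 and 1.03 units in vehicle mice. Both the lowest and the highest ovary were from pioglitazone mice. Its highest value was 6.67 times its lowest, where the median probe on the array had 1.83. The mean was 1.03 ± 0.65 units with pioglitazone and 0.889 ± 0.155 units with vehicle, yet the log2 fold change was -0.10 (95% confidence interval -1.31 to 1.10, adjusted p = 0.980 in limma). Without pioglitazone mouse 1 the log2 fold change was 0.48.

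Pioglitazone mouse 1 had the lowest Ptprc and Cd8a and the highest Cd79b of all 8 mice. The same ovary had the highest adipocyte signal, with a summed adipocyte list level of 174.7 units, against 42.6 to 70.8 units in the other pioglitazone mice and 59.6 to 101.2 units in vehicle mice. Adipoq, which encodes adiponectin, was at 40.2 units there and between 1.54 and 10.7 units in the other 7 mice. The part of this in the marker values was not tested.

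**Figure D3:**
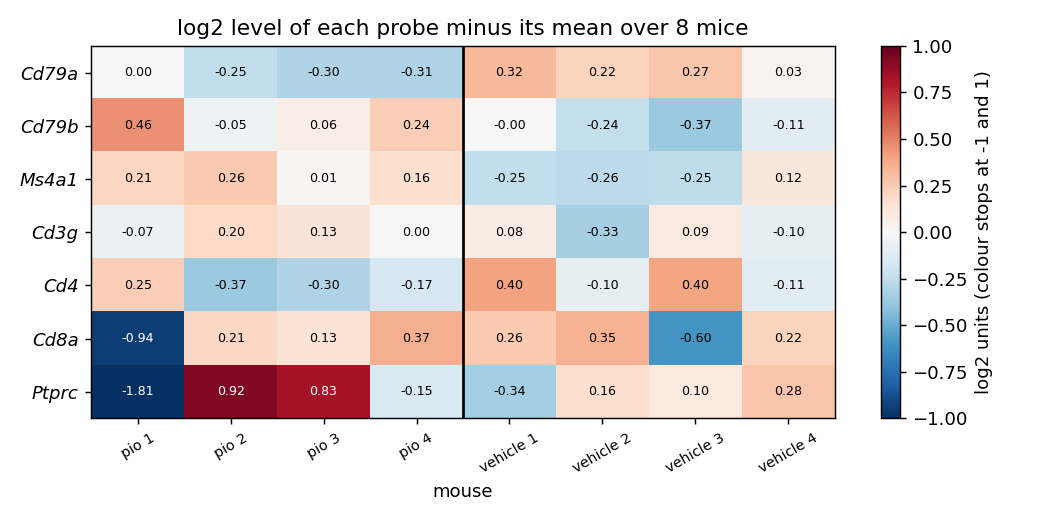
Log2 level of each of the 7 probes in each mouse minus the mean of that probe over 8 mice (colour, with the value in each cell); columns are pioglitazone mice 1 to 4, then vehicle mice 1 to 4. Pioglitazone mouse 1 is at -1.81 for Ptprc and -0.94 for Cd8a, while Cd79a runs between -0.31 and 0.00 in pioglitazone mice and between 0.03 and 0.32 in vehicle mice.

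Pairs of genes of 1 cell type gave correlations of either sign across the 8 mice. Of 21 pairs, none passed adjustment (exact permutation over all pairings of the 8 mice). Cd79a and Cd79b had r = -0.50 (rho = -0.60, exact permutation p = 0.210 and 0.132, adjusted 0.490 and 0.556), and r was -0.38 without the 2 mice farthest from the median. With the group means removed r was 0.42. Cd79a and Ms4a1 had r = -0.79 (rho = -0.64, exact permutation p = 0.029 and 0.096, adjusted 0.308 and 0.556), or -0.93 without the 2 farthest mice and -0.36 with group means removed.

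The highest value joined a B cell to a T cell gene. Cd79a and Cd4 had r = 0.80 (rho = 0.83, exact permutation p = 0.028 and 0.015, adjusted 0.308 and 0.323), or 0.75 without the 2 farthest mice and 0.83 with group means removed. Cd4 and Ptprc had r = -0.64 (rho = -0.76, exact permutation p = 0.073 and 0.037, adjusted 0.367 and 0.386), or -0.96 without the 2 farthest mice. Cd8a and Ptprc had r = 0.66 but rho = 0.02 (exact permutation p = 0.099 and 0.977, adjusted 0.367 and 0.977), and r turned to -0.70 without the 2 farthest mice, so the relation rests on those mice.

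**Figure D4:**
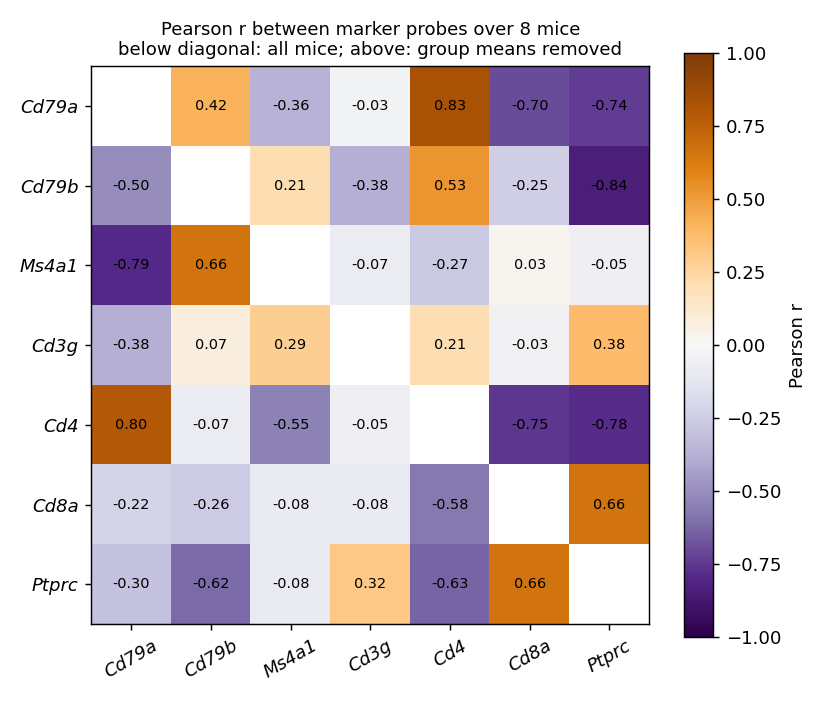
Pearson r over 8 mice (colour and number) for the 21 pairs of the 7 probes, below the diagonal from all mice and above it with group means removed. Cd79a and Cd79b read -0.50 below and 0.42 above the diagonal.

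Each member was also set against the other leukocyte genes, in 1036 pairs, of which none passed adjustment (smallest adjusted p = 0.0514, exact permutation over 8 mice). The r values largest in size were negative ones of Cd79a, at -0.97 with a gene of the T cell list and -0.94 with a gene of the B cell list. Ptprc and Mrc1, the macrophage mannose receptor, had r = 0.93 (rho = 0.98, exact permutation p = 0.000322 and 0.000397, adjusted p = 0.111 for r) and 0.98 without the 2 farthest mice. Ptprc and Cd53, a leukocyte tetraspanin, had r = 0.81 (rho = 0.93, exact permutation p = 0.00521 and 0.00223, adjusted p = 0.311 for r) and 0.97 without the 2 farthest mice. High values were not particular to leukocyte genes. Among 16000 named genes, the 10 nearest to Ptprc ran from Robo1 (r = 0.99) to Kctd9 (r = 0.98), all above Mrc1 and none in a list used here. They included Fcgr2b, which encodes an Fc receptor of leukocytes (r = 0.98). Cd3g and Cd3d, chains of the same complex, had r = 0.08 (rho = -0.21, exact permutation p = 0.842 and 0.619, adjusted p = 0.979 for r). Cd8a and Cd8b1, which pair in the CD8 co-receptor, had r = -0.38 (rho = -0.19, exact permutation p = 0.344 and 0.665, adjusted p = 0.806 for r). These pairs were picked after their values were seen.

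The genes with the mean profile most like that of the B cell members, among 16000 named genes over 8 mice, were Jade2 (r = 0.99), Zfp873, Abcc10, Pga5, Lrig3, Il15ra, Lims2, Trim45, 1810014B01Rik and Nlrp4f (r = 0.96). For the T cell members they were Speer4cos (r = 0.96), Smim1, 1700003G18Rik, Eid1, Mpnd, Rasgrf1, Phyh, Gde1, Aldh3b1 and Rac2 (r = 0.90). Of the 20, only Rac2, a leukocyte GTPase, is in a leukocyte list. These values describe 8 arrays scaled in the same way. The members behind each mean did not all vary together. Cd79a had r = -0.50 with Cd79b and -0.79 with Ms4a1, while Cd79b and Ms4a1 had 0.66. Cd4 and Cd8a had r = -0.58, and Cd3g had -0.05 and -0.08 with them. The mean profiles thus stand for no single member.

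Of 21 tested genes of the B cell and B cell receptor list, 1 was higher and 1 lower at an unadjusted p under 0.05 (9.52% called, where 5.5% of all probes were), with a median log2 fold change of -0.04, against -0.03 for all probes tested. Cd37, a B cell tetraspanin, read 0.639, 0.624, 0.703 and 0.696 units in pioglitazone mice, against 0.480, 0.473, 0.458 and 0.517 units in vehicle mice (log2 fold change 0.46, adjusted p = 0.837 in limma). Bank1, a B cell scaffold protein, averaged 6.39 ± 0.84 units with pioglitazone and 8.16 ± 0.73 units with vehicle (SD, n = 4 each, log2 fold change -0.36). Groups did not overlap for 3 of the 21 genes (14.3%, where 4.59% of all probes had groups that did not overlap): Cd37, Bank1 and Pou2af1, a B cell coactivator, which was named for this count after its values were seen (0.794 to 0.973 units with pioglitazone and 1.02 to 1.12 units with vehicle, unadjusted p = 0.0523 in limma). Cd22, an inhibitory receptor of B cells, averaged 2.05 ± 0.29 units with pioglitazone and 2.69 ± 0.46 units with vehicle (unadjusted p = 0.0512 in limma). Of the 9 plasma cell and immunoglobulin genes tested none was called, with Ighm, Xbp1 and Mzb1 at log2 fold changes of 0.31, -0.35 and 0.19.

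Of 33 tested genes of the T cell list, 1 was higher and 1 lower (6.06% called, where 5.5% of all probes were, with a median of -0.03). Groups did not overlap for 2 of the 33, Bcl11b and Foxp3 (6.06%, where 4.59% of all probes had groups that did not overlap), the second named after its values were seen. Bcl11b, a transcription factor of T cells, read 1.10, 1.21, 1.33 and 1.22 units in pioglitazone mice, against 0.786, 0.949, 0.860 and 0.988 units in vehicle mice, so the groups did not overlap (log2 fold change 0.44, unadjusted p = 0.00978 in limma). Ctla4, an inhibitory receptor of activated T cells, averaged 0.114 ± 0.079 units with pioglitazone and 0.248 ± 0.087 units with vehicle, close to or under the limit (log2 fold change -1.25, or -0.31 with values raised to 0.2). It is the gene called lower, and it passed the filter through the vehicle group alone. All pioglitazone mice were under the limit. With values raised to 0.2 the call was lost (unadjusted p = 0.148 in limma). Ccr7, a homing receptor of naive T cells, had a log2 fold change of 0.54 (unadjusted p = 0.0618 in limma), or 0.25 with values raised to 0.2, since vehicle mice 1 and 3 were under the limit. Ccr7 passed the filter through the pioglitazone group alone.

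In the other leukocyte lists, no NK, pan-leukocyte or macrophage gene was called, of 15, 19 and 19 tested. The macrophage median was -0.20, with 14 of 19 negative and 5 positive. C1qa, a complement chain, was at 11.8 ± 1.8 units with pioglitazone and 15.3 ± 2.2 units with vehicle (unadjusted p = 0.0511 in limma), and Adgre1 and Fcgr1 were at -0.36 and -0.37. Adgre1 was under the limit in pioglitazone mice 1, 3 and 4, and was at -0.14 with values raised to 0.2. It passed the filter through the vehicle group alone. The NK list had a median of 0.08, with 11 of 15 positive and 4 negative, and Klre1, Klra8 and Prf1 were at 0.63, 0.18 and 0.30. Prf1 was under the limit in pioglitazone mice 1 and 2 and in vehicle mice 1, 2 and 3, and was at 0.094 with values raised to 0.2 and at 0.10 without vehicle mouse 2. Prf1 passed the filter through the pioglitazone group alone. The pan-leukocyte genes Cytip, Itgb7 and Ptpn6 were at -0.31, -0.34 and 0.45. Of 16 dendritic genes Itgax, which encodes CD11c, was lower (-0.46, 6.25% called), with Ciita at 0.24 and H2-DMb1 at -0.21. Of 16 granulocyte genes Retnlg (0.72) and Ltf (0.51) were higher (12.5% called, where 5.5% of all probes were), with Csf3r at -0.55. The granulocyte median was 0.18, with 12 of 16 positive and 4 negative. Groups did not overlap for 1 of 15 NK genes (6.67%) and 1 of 16 granulocyte genes (6.25%), where 4.59% of all probes had groups that did not overlap. Over the 8 leukocyte lists, 7 of 148 tested genes were called (4.73%), 4 higher and 3 lower, near the 5.5% of all probes. In the blocked fit 17 of the 148 were called (11.5%), 8 higher and 9 lower, against 8.6% of all probes. Among the genes named here, Klre1, Csf3r, C1qa, Fcgr1 and Cytip were called only in that fit (unadjusted limma p between 0.00371 and 0.0481).

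Summed levels of the leukocyte lists overlapped between groups. The B cell list summed to 36.4 to 44.3 units in pioglitazone mice and 40.3 to 50.1 units in vehicle mice, the T cell list to 43.9 to 52.5 units in pioglitazone and 44.9 to 58.5 units in vehicle mice, and the macrophage list to 177.5 to 256.6 units in pioglitazone and 165.4 to 318.9 units in vehicle mice. The lymph node stroma list summed to 28.1 to 38.1 units with pioglitazone and 32.3 to 39.0 units with vehicle, with Ccl21b, Cxcl13 and Pdpn at log2 fold changes of 0.28, 0.46 and -0.29. Pdpn alone read 10.7 to 18.9 units with pioglitazone and 15.3 to 23.0 units with vehicle. Whether nodes adhered was not tested. Red blood cell genes summed to 7.92 to 9.07 units in pioglitazone and 6.90 to 12.8 units in vehicle mice, with Alas2, Slc4a1 and Epb42 at 0.18, 0.07 and -0.20. The first 2 changed sign under some settings. Adipocyte genes Cidec, Cidea and Pnpla3 were at -0.25, 0.50 and -0.23, and Cidea, which is near the limit, was at 0.16 with values raised to 0.2. Cidea passed the filter through the pioglitazone group alone.

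The ovarian lists are given beside the markers. Luteal genes had a median log2 fold change of -0.54, with 9 of 10 negative, and none was called, with Cyp11a1, Hsd3b1 and Scarb1 at -0.83, -0.37 and -0.72. Without pioglitazone mouse 1 they were at -0.37, -0.17 and -0.30. The mean centred log2 level of the luteal list was -1.16 and -1.01 in pioglitazone mice 1 and 4, and 0.43 and 0.73 in pioglitazone mice 2 and 3, against -0.56 and -0.40 in vehicle mice 1 and 4, and 1.17 and 0.79 in vehicle mice 2 and 3. Mice 1 and 4 of both groups were thus low. Granulosa genes had a median of 0.33, with 11 of 12 positive and 1 called (8.33%, where 5.5% of all probes were). Fst, which encodes follistatin, was called (4.72 ± 1.69 units with pioglitazone and 2.90 ± 0.71 units with vehicle, unadjusted p = 0.0494 in limma), and Nr5a2 and Gja1 were at 0.61 and 0.32. In the blocked fit Cyp11a1, Scarb1 and Nr5a2, and Cidea of the adipocyte list, were called too (unadjusted limma p between 0.00670 and 0.0383). Of these, Cidea passed the filter through the pioglitazone group alone, where it was higher. The part of these lists in the marker values was not tested.

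**Figure D5:**
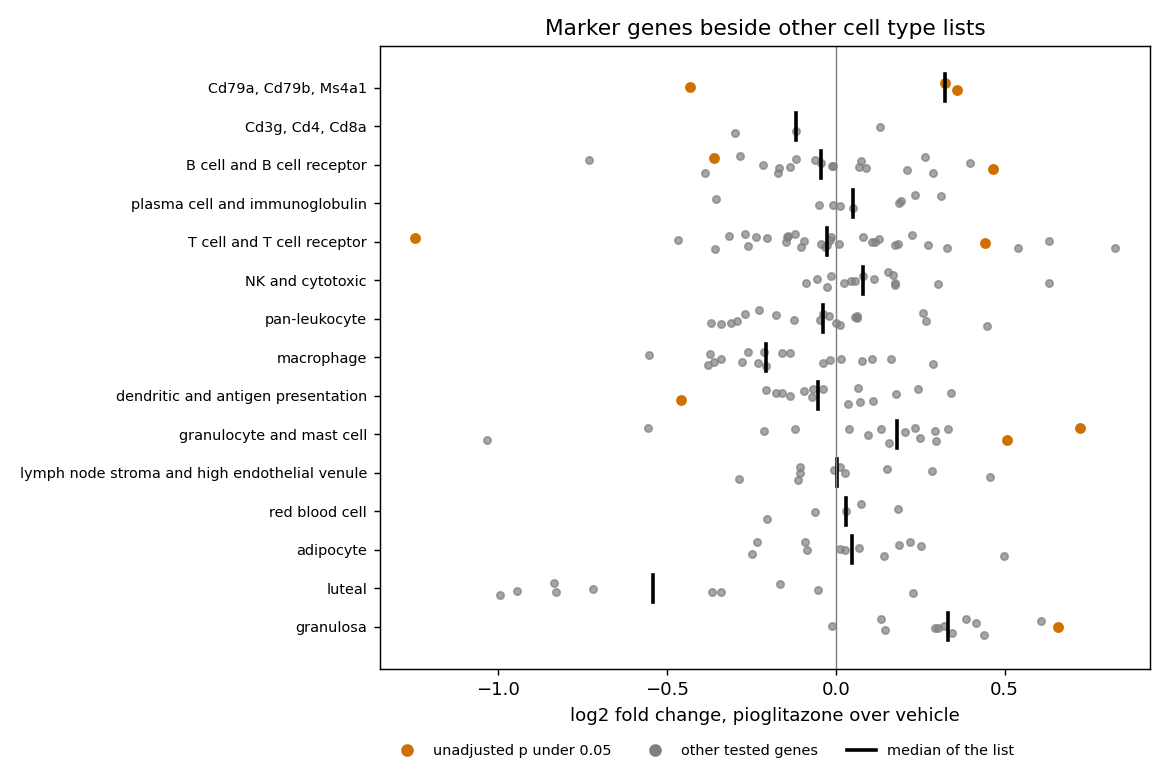
Log2 fold change of pioglitazone over vehicle (x axis) for each tested gene of the marker sets and of 13 other lists (rows); orange points have an unadjusted p under 0.05 and black bars are list medians. The 3 B cell markers fall on both sides of 0, at -0.43, 0.32 and 0.36, and the leukocyte list medians lie between -0.20 and 0.18.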

How the data were processed

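Ovarian RNA of 4 pioglitazone and 4 vehicle LY mice was hybridised to CodeLink arrays, 1 per mouse. The deposited values are linear intensities that the authors had background-corrected and median-scaled per array; the further scaling per gene that the methods name was not seen. Spots coded -9999 were taken as missing. Arrays were rescaled to a median of 1, a floor of 0.05 was set, and log2 was taken. Testing required 3 values per group and a group mean reaching 0.2, which left 30634 probes for limma 3.58.1 (R 4.3.3), with Benjamini-Hochberg adjustment over all of them. Single probes also had a 2-sided exact permutation test over 70 assignments. The fit was tested on simulated data. The platform annotation gave a single gene to 21615 probes. The number of arrays limits the precision.

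The members and lists were chosen with earlier results of these data known. Named are all members, the 3 genes of each of 13 other lists with the smallest unadjusted p, and the 10 genes nearest to the B cell and T cell profiles. Others, such as Adipoq, Cd3d, Cd8b1, Cd53, Mrc1, Fcgr2b, Pou2af1 and Foxp3, were chosen after their values were seen. Same-numbered arrays of the 2 groups correlated at 0.515, 0.181, 0.274 and 0.232 with group means taken out. Among differently numbered arrays, pioglitazone mouse 3 and vehicle mouse 2 correlated at 0.369, and 2 further pairs at 0.157 and 0.110. The remaining differently numbered pairs lay lower, between -0.528 and 0.049. All same-numbered values were thus above every differently numbered value except 0.369. The labels number the mice within each group and state no pairing, so a pairing was not established. The main fit has no block, and the blocked value is given as an alternative where it changes a call. Alternatives were other floors, normalizations, filters, tests, array weights, the block and each mouse left out.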

Additional observations from a re-analysis of the deposited data

Results flagged for a closer look

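Of 94 groups of 4 mice (47 probes), 2 held a mouse that lay far from the other 3, where chance gives about 1 in 20 groups. Ms4a1 in vehicle mouse 4 was at 0.389 units, while the other vehicle mice lay between 0.299 and 0.303 units. Ccr7 in pioglitazone mouse 2 was at 0.254 units, while the other pioglitazone mice lay between 0.275 and 0.278 units.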

How the results depend on the processing

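No probe passed adjustment in limma under any alternative, and Cd79a kept its direction and its unadjusted call in all 23. The count of member probes called, 3, was 1 without a filter, with array weights and in 3 against 3 mice (without pioglitazone mouse 1 and vehicle mouse 3, chosen after seeing the data), and between 1 and 2 with 1 mouse left out. Cd79b kept its call in 14 of 23 alternatives and Ms4a1 in 8 of 23. All probes called at an unadjusted p under 0.05, 1685, numbered 2635 with the replicate block, 2574 in 3 against 3 mice, and between 737 (without pioglitazone mouse 4) and 2443 (without pioglitazone mouse 1) with 1 mouse left out. Among the members the replicate block changed the call of Ms4a1 alone (log2 fold change 0.32), and among the other named genes 9 were called only with it.

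Signs turned for Ptprc to 0.31 with array weights, 0.14 on linear values and 0.50 in 3 against 3 mice, and its values with 1 mouse left out ran between -0.43 and 0.48. Those of Cd8a ran between -0.33 and 0.18. Alas2 turned to -0.19 with array weights and -0.038 on linear values, and ran between -0.035 and 0.61 with 1 mouse left out. Slc4a1 turned to -0.016 with a floor of 0.2 and ran between -0.10 and 0.24. Cd37 and Bcl11b kept their unadjusted call in all 23 alternatives, while Bank1 lost it in 6, Ctla4 in 9, Itgax in 8, Ltf in 4, Retnlg in 1 (without vehicle mouse 4) and Fst in 12. The cause was not tested. The mean over several probes of a gene was not run, since each member has 1 probe. Signal near the limit leaves Cd3e unmeasured and Cd8a, Ms4a1, Ctla4, Ccr7, Adgre1, Prf1, Itgb7, Cidea and Slc4a1 imprecise.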
